A study of Mus musculus with 6 samples.

Results

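The 10 Notch pathway genes described here are the ligands Dll4, Jag1 and Jag2, the receptors Notch1, Notch2, Notch3 and Notch4, and the target genes Hes1, Hey1 and Hey2. They were found by gene symbol among 31054 features in the count tables, and each symbol had 1 row. Expression was measured by droplet-based single-cell RNA sequencing of lungs from male C57BL/6 mice of 21 months, with 1 library from each of 6 mice. Mice of the genotype p16-CreERT2/R26-LSL-DTR gave the 3 p16-DTR-labelled libraries, and in these mice tamoxifen activates a Cre recombinase expressed from the p16 promoter, and the recombinase in turn switches on a diphtheria toxin receptor. The 3 control libraries came from p16-CreERT2 mice, which carry the recombinase without the receptor. Mice of both groups received tamoxifen for 5 days and, after an interval of 2 weeks, diphtheria toxin for 5 days, and then recovered for 2 weeks, so that Cre, tamoxifen and toxin were shared by the groups. Lungs were digested with Liberase, and 20000 CD45-negative and 9000 CD45-positive cells were sorted and mixed for each library, so the sort set the proportion of immune cells.

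Notch receptors are single-pass membrane proteins that are activated by ligands on a neighbouring cell. Ligand binding exposes the receptor to cleavage by an ADAM protease and then by gamma-secretase, and the freed intracellular domain enters the nucleus, where it binds the DNA-binding protein RBPJ and recruits Mastermind coactivators. The Hes and Hey genes encode basic helix-loop-helix repressors and are classical targets of this complex. In blood vessels the pathway is known for arterial specification, for restraint of sprouting through Dll4 and Notch1, and for the maintenance of pericytes and smooth muscle through Notch3.

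RBPJ binds DNA around the letters TGGGAA, and the promoters of the members were searched for them because the pathway acts on its targets through this protein. RefSeq promoter windows (GRCm38.p6, 250 bases before to 50 bases after the transcription start) were found by symbol for 8 of the 10 members, and those of Hes1 and Hey1 were not analysed here. TGGGAA, searched on both strands, was present in 25.6% of 32851 mouse promoter windows of this length. The longer form CGTGGGAA, which contains the shorter one, was present in 0.734% of them. Of the 8 windows only that of Hey2 held either motif, with 2 matches to each. One match lay on the opposite, template strand, with its first base 207 bases before the start, and the other on the coding strand, which reads like the RNA, with its first base 3 bases before the start. The Hey2 window, chr10:30842734-30843033 on the minus strand, is printed 5′ to 3′ in the direction of transcription with both matches to TGGGAA in capitals, the first of them read as its reverse complement. The Notch4 window, chr17:34564045-34564344 on the plus strand, is printed beside it because Notch4 is the receptor whose level differed between the groups, and it held no match.
Hey2: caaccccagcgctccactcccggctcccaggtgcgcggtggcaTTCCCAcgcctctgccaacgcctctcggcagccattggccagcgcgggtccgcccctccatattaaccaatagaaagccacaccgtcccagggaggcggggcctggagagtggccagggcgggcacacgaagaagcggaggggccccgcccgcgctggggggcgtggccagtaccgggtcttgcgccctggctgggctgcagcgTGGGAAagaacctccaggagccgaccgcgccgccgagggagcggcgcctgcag
Notch4: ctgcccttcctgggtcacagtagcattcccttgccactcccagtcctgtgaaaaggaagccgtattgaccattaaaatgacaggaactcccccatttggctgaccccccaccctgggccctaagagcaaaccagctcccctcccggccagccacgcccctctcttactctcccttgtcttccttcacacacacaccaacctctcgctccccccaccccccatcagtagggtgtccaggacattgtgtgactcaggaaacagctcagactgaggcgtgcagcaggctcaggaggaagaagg
A match is a run of letters and not a measured binding site, and these data contain no measurement of binding.

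After filtering and removal of predicted doublets, 85386 cells were retained, between 12323 and 15713 per library. Before filtering, the libraries held between 254200305 and 344421685 UMIs (unique molecular identifiers, each counting 1 captured transcript). Pairs of libraries shared between 59 and 94 cell barcodes. Cdkn2a, the gene that encodes p16, was at 6.77, 8.42 and 7.22 UMIs per 1000000 UMIs (CPM) in the p16-DTR-labelled libraries and at 1.18, 2.60 and 2.70 in the controls, so it was higher where p16-expressing cells were to be removed (log2 fold change 1.84, edgeR adjusted p 0.129). A tdTomato entry of the count tables had 78, 66 and 83 UMIs in the p16-DTR-labelled libraries and 0 in each control library. Directions below therefore refer to the libraries as labelled. Cells were clustered without the members and grouped into classes by marker genes, and 23 named classes with at least 50 cells in every library were analysed. Unnamed clusters held 12.8% of the cells. One of them, led by Sema3g, Mcf2l and Efnb2 and with Gpihbp1 and Hey1 among its 10 leading genes, was endothelial but carried markers of both arterial and general capillary cells. It is reported separately from the named classes, a choice made after its values were seen. The capillary endothelium of the lung consists of general capillary cells and of aerocytes, thin cells specialised for gas exchange.

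Levels are given as a gene's UMIs divided by all UMIs of the class in that library and expressed as CPM, as the mean ± SD of the 3 control libraries unless stated otherwise, and are compared across classes for 1 gene at a time, since the number of UMIs per transcript differs between genes. Among the ligands, Dll4 (ENSMUSG00000027314, chromosome 2, 119325784 to 119335962 in GRCm38), the ligand of arterial and sprouting endothelium, was highest in arterial endothelium at 192 ± 16.6. Lymphatic endothelium followed at 118 ± 7.25, and aerocytes at 79.6 ± 7.17 overlapped with general capillary cells at 66.5 ± 6.46. Venous endothelium was far below these at 6.52 ± 0.505. The Dll4 order was thus arterial, lymphatic, capillary and venous, with no overlap between the control libraries of these steps.

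Jag1 (ENSMUSG00000027276, chromosome 2, 137081456 to 137116644) encodes a Notch ligand of endothelium, mural cells and epithelium. It was highest in ciliated cells at 229 ± 9.03, above arterial endothelium at 68.8 ± 21.4 and venous endothelium at 66.3 ± 13.4. Smooth muscle at 51.8 ± 19.96, lymphatic endothelium at 49.1 ± 3.96 and general capillary cells at 47.3 ± 7.0 followed, and below ciliated cells each of these classes overlapped with the next. Jag2 (ENSMUSG00000002799, chromosome 12, 112907819 to 112929776), a further ligand of the Jagged type, was also highest in ciliated cells at 66.2 ± 6.85. Aerocytes at 49.8 ± 3.16 and general capillary cells at 42.7 ± 5.71 came next and overlapped with each other, and venous endothelium was lower at 16.7 ± 3.24.

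Among the receptors, Notch1 (ENSMUSG00000026923, chromosome 2, 26457903 to 26516663) was highest in arterial endothelium at 418 ± 50.8. Aerocytes at 244 ± 9.49, lymphatic endothelium at 236 ± 9.83, general capillary cells at 230 ± 20.9, pericytes at 216 ± 18.7 and venous endothelium at 202 ± 14.9 formed a second group in which each overlapped with its neighbour. Notch2 (ENSMUSG00000027878, chromosome 3, 98013527 to 98150361), a receptor known for its part in marginal zone B cells and in monocyte fate, had a different distribution. Neutrophils at 868 ± 31.1, nonclassical monocytes at 677 ± 13.1 and classical monocytes at 431 ± 18.2 did not overlap. Arterial endothelium had the lowest mean of all 23 classes at 20.1 ± 3.93, and it overlapped with venous endothelium at 21.6 ± 2.08.

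Notch3 (ENSMUSG00000038146, chromosome 17, 32120820 to 32166852), the receptor of mural cells, was at 1158 ± 48.2 in pericytes and 594 ± 48.6 in smooth muscle. The next class, adventitial fibroblasts, was at 8.45 ± 1.88, and no control library of these 3 classes overlapped with the next class in order. Notch4 (ENSMUSG00000015468, chromosome 17, 34564268 to 34588503), a receptor largely restricted to endothelium, was at 136 ± 9.0 in general capillary cells and 132 ± 21.0 in arterial endothelium, which overlapped. Venous endothelium at 90.9 ± 6.27 and aerocytes at 56.2 ± 4.88 were lower, and lymphatic endothelium was at 4.17 ± 2.20.

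Among the targets, Hes1 (ENSMUSG00000022528, chromosome 16, 30064384 to 30067796) was highest in lymphatic endothelium at 406 ± 48.7. Venous endothelium at 249 ± 38.9, ciliated cells at 205 ± 21.6 and general capillary cells at 188 ± 25.6 followed, each overlapping with the next. Hey1 (ENSMUSG00000040289, chromosome 3, 8663359 to 8667256), a transcriptional repressor expressed in arterial endothelium, was at 166 ± 32.3 in arterial and 94.8 ± 12.3 in general capillary endothelium, which did not overlap. In venous endothelium it was at 26.0 ± 10.4 and in aerocytes at 2.66 ± 0.912, so general capillary cells and aerocytes stood far apart in Hey1. Hey2 (ENSMUSG00000019789, chromosome 10, 30832359 to 30842801), a transcriptional repressor expressed in smooth muscle and arterial cells, was at 39.9 ± 12.0 in smooth muscle, 25.04 ± 0.888 in arterial endothelium and 15.4 ± 1.35 in pericytes. It had no UMI in any library in 3 of the 23 classes.

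**Figure D1:**
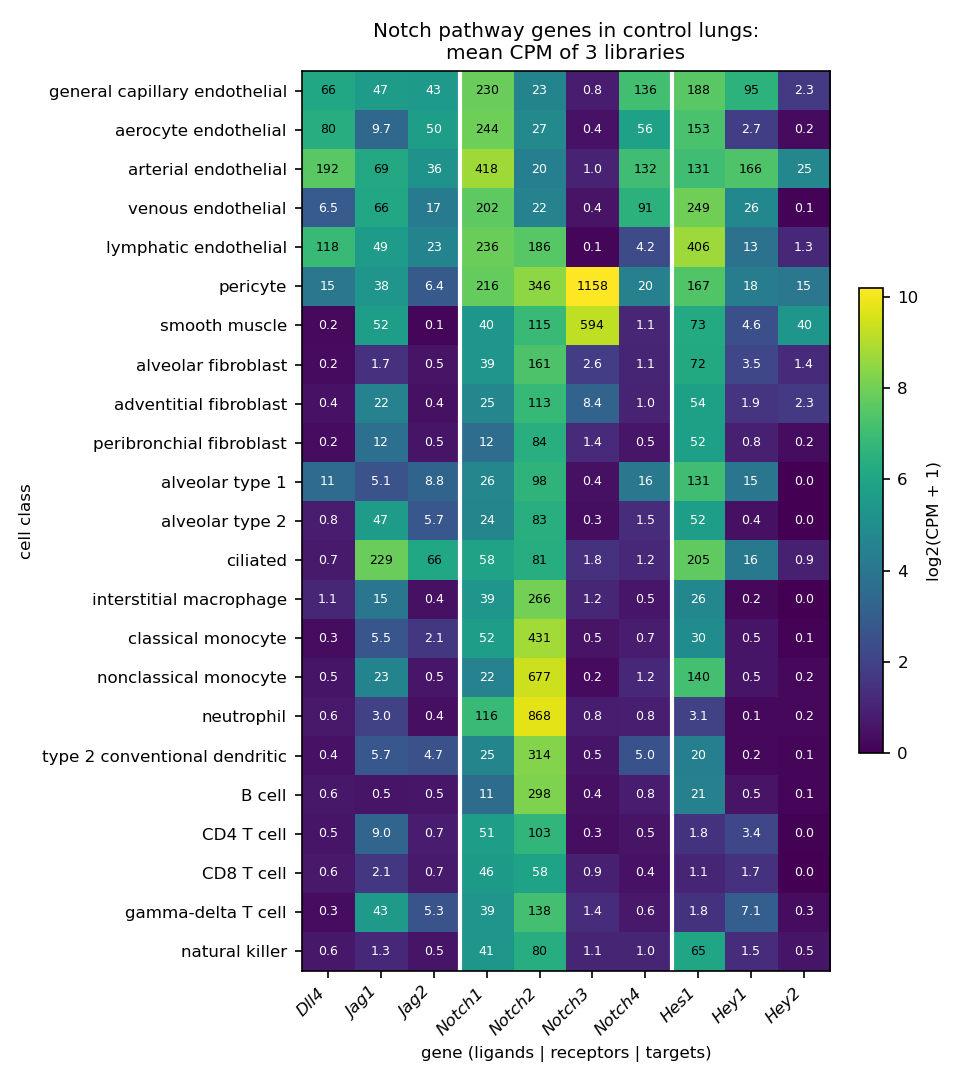
Mean CPM of the 10 members (columns, grouped as ligands, receptors and targets) in 23 cell classes (rows) of the 3 control libraries, with colour on a log2 scale and the mean printed in each field. Values are to be read down a column: Notch3 stands out in pericytes at 1158 and smooth muscle at 594, Notch2 in neutrophils at 868, and Dll4, Notch1 and Hey1 in arterial endothelium at 192, 418 and 166.

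For each member the genes with the most similar distribution were found by Pearson correlation of log2 control levels over the 23 classes, among 14266 genes, as a description of these classes, which share their libraries. They were Bcl6b (r = 0.963) and Sox18 (0.955) for Dll4, Megf6 (0.761) and Mical2 (0.746) for Jag1, and Mansc1 (0.911) and Rassf9 (0.908) for Jag2. The genes most like the receptors were Arap3 (0.842) and Rasip1 (0.838) for Notch1, Map3k15 (0.817) for Notch2, Tusc5 (0.979) and Ndufa4l2 (0.968) for Notch3, and Gata2 (0.963) and Clec14a (0.957) for Notch4. Among the targets, Hes1 was most like Erlin2 (0.921) and Rbpms (0.895), Hey1 like Acer2 (0.911) and Ackr4 (0.895), and Hey2 like Sema5b (0.849) and Parm1 (0.849). Between members, the same correlation was 0.836 for Notch4 with Dll4, 0.765 for Notch3 with Hey2 and -0.632 for Notch2 with Hey1.

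The comparison of the groups asked whether the members differed after the treatment meant to remove p16-expressing cells. Hey1 was higher in general capillary endothelium and Notch4 was higher in venous endothelium of the p16-DTR-labelled libraries, and no other pair of a member and a named class passed the test. A gene counted as changed in a class when its edgeR quasi-likelihood test, adjusted over all genes of that class by the Benjamini-Hochberg method, was under 0.05. Of 230 pairs of a member and a class, 138 had enough counts to be tested and 2 were called, or 1.45%, against 0.863% of all gene and class pairs tested. At an unadjusted p under 0.05 there were 35 of the 138 pairs (25.4%), against 13.2% of all pairs. DESeq2 called 7 of the 138, both edgeR calls among them, where it called 2.28% of all pairs. Its calls were 3 in general capillary endothelium, 2 in alveolar fibroblasts, 1 in CD4 T cells and 1 in venous endothelium. The 92 pairs that were not tested had too few counts. The median log2 fold change of the tested pairs was 0.09, against -0.000861 for all genes in these classes. These shares describe the members only, because the members were chosen with earlier results of these data known. The pairs also repeat the same genes over classes from the same mice and are not independent.

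Hey1 stood at 134.8, 132.1 and 143.8 CPM in general capillary endothelium of the p16-DTR-labelled libraries and at 81.3, 105.3 and 97.8 in the controls. Every p16-DTR-labelled library was above every control library, as for 9.38% of genes tested in this class. In either direction the groups were apart for 28.1% of them. The log2 fold change was 0.56 (standard error 0.095), a 1.48-fold difference (edgeR adjusted p 0.0328); 2.82% of 14969 genes tested in this class were called in either direction and 1.24% as higher. The call was lost in 3 of the 6 fits that left out a library: the edgeR adjusted p was 0.108 without p16-DTR library 3, 0.0750 without p16-DTR library 1 and 0.0693 without control library 3, at log2 fold changes from 0.46 to 0.65 over the 6 libraries left out in turn. When cells were gated 1 by 1 on the share of class markers found in the cell, the log2 fold change was 0.53 (edgeR adjusted p 0.0611). Counted with predicted doublets, the gated class took in 6226 cells of unnamed clusters beside 13018 of the named class, so it was a different set of cells.

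General capillary endothelium was made of several clusters, and Hey1 was also tested within single clusters, an alternative chosen after seeing the data. The cluster led by Kcnh1, Grik2 and Chrm2 held 1427, 1356 and 1193 cells in the p16-DTR-labelled libraries and 724, 843 and 1025 in the controls, without overlap. Within it Hey1 was higher by 0.49 on the log2 scale (standard error 0.085, edgeR adjusted p 0.0287), where 2.79% of genes tested were called. The cluster led by Sema3c, Ntrk2 and Sox17 held 791, 833 and 1198 against 1069, 994 and 1068 cells, which overlapped, and its difference was 0.64 (standard error 0.094, edgeR adjusted p 0.0194), where 2.21% were called. The part of the cluster proportions in the difference of the whole class was not tested. In a cluster of cells with few UMIs, led by Bvht, Gpihbp1 and Unc45b, with 300, 291 and 404 against 227, 242 and 303 cells, the Hey1 difference was 0.54 (standard error 0.17, edgeR adjusted p 0.299), where 0.253% were called. A further cluster, led by Sema3c, Sox11 and Bmp6, held 2, 6 and 6 against 8, 3 and 102 cells. It came mostly from control library 3 and was too small to test.

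Summed markers of venous and lymphatic endothelium, but not those of arterial endothelium, also separated the groups. The sums do not show how single markers behaved. In general capillary endothelium the summed level of the 8 venous markers was 708 to 836 CPM in the p16-DTR-labelled libraries and 502 to 654 in the controls, and that of the 7 lymphatic markers 1008 to 1148 against 650 to 816. The 8 arterial markers, the class where Hey1 is highest, summed to 1089 to 1161 against 982 to 1145 and overlapped. No gene of these 3 lists was at 0 in every library. The groups were apart for 28.1% of all genes tested in this class, and the part of these markers in the Hey1 result was not tested.

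In the unnamed cluster led by Sema3g, Mcf2l and Efnb2, Hey1 was at 242.6, 255.0 and 253.5 CPM in the p16-DTR-labelled libraries and at 169.7, 205.3 and 184.0 in the controls. Again no control library reached a p16-DTR-labelled library, and the groups were apart for 23.7% of genes tested there. The log2 fold change was 0.46 (standard error 0.078, edgeR adjusted p 0.0404), where 1.26% of genes tested were called. The adjusted p stayed under 0.05 in only 1 of the 6 fits that left out a library, at 0.0262 without control library 2, and reached 0.111 without control library 1. The summed arterial markers of this cluster, 2133 to 2151 against 1989 to 2120, and its general capillary markers, 5203 to 5950 against 4836 to 5132, were also apart. Most of the arterial sum came from Efnb2 (mean 1361 against 1290 CPM) and Sema3g (546.2 against 509.2), which also lead the cluster, while the means of Gja4 (175.2 against 197.2) and Bmx (31.6 against 48.2) lay the other way. The part of these markers in the result was not tested.

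Notch4 stood at 124.0, 119.3 and 129.2 CPM in venous endothelium of the p16-DTR-labelled libraries and at 84.2, 92.0 and 96.6 in the controls. The groups did not overlap, as for 24.5% of all genes tested in this class. The log2 fold change was 0.46 (standard error 0.074), a 1.37-fold difference (edgeR adjusted p 0.0132), where 4.29% of 12562 genes tested in this class were called and 1.64% were called as higher. Without p16-DTR library 3 the adjusted p was 0.0629 at a log2 fold change of 0.43. Venous endothelium of the p16-DTR-labelled libraries also had higher summed general capillary markers, 4169 to 4809 against 3490 to 3881, and higher arterial markers, 241 to 274 against 157 to 201. The control level of Notch4 was higher in both of those classes than in venous endothelium, and the part of these markers in its difference was not tested. The summed venous markers overlapped, at 8494 to 9490 against 8496 to 9168 CPM, but the means of single ones differed in both directions. Slc6a2 was higher at 2193 against 1733, as were Ptgs1 at 309.7 against 221.5 and Amigo2 at 409 against 371.7. Vwf at 3381 against 3193 and Nr2f2 at 316.7 against 308.6 were slightly higher. Prss23 at 1773 against 2125, Car8 at 232.0 against 405.2 and Vcam1 at 246.0 against 547.8 were lower. The part of these venous markers was not tested either.

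The log2 fold change of Notch4 was above 0 in all 11 classes in which it was tested, under each of 3 scalings, although venous endothelium gave the sole call. Between 48.5% and 51.2% of all genes tested in each of these classes were above 0. The control level of Notch4 was low in some of the 11, such as 1.05 ± 0.0829 CPM in alveolar fibroblasts. The classes come from the same 6 mice, so signs counted across classes, here and for the other members, are not independent of each other. In general capillary endothelium Notch4 was at 170.3, 155.1 and 161.3 against 125.8, 139.3 and 142.9 (0.29 on the log2 scale, edgeR adjusted p 0.0569). The groups did not overlap, as for 28.1% of genes tested there. Arterial endothelium had 170.8, 156.4 and 173.9 against 115.3, 155.7 and 125.3, and the groups were apart (0.35 on the log2 scale, edgeR adjusted p 0.216), as for 19.7% of genes tested there. The groups were also apart in lymphatic endothelium and pericytes, which makes 5 of the 11 classes, where 18.0% and 16.7% of genes tested were apart. Pericytes had Notch4 at 33.1, 29.8 and 38.8 against 17.8, 26.2 and 17.3 (edgeR adjusted p 0.195), and their summed general capillary markers were 998 to 1248 against 595 to 791 CPM. The part of these endothelial markers in the pericyte values was not tested.

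Hey1 had log2 fold changes above 0 in 9 of its 12 classes. Venous endothelium had 37.2, 36.0 and 44.4 CPM against 16.8, 37.2 and 24.0, which overlapped (log2 fold change 0.60, edgeR adjusted p 0.192). Arterial endothelium, with 251.6, 190.0 and 184.9 against 154.6, 202.0 and 140.3, overlapped too (0.35, edgeR adjusted p 0.360). The 3 classes with values below 0 were lymphatic endothelium at -0.48, CD4 T cells at -0.42 and CD8 T cells at -1.04, none of them called.

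The other receptors and ligands were not called by edgeR in any named class. Notch1 had 19 of 23 log2 fold changes above 0, 1 of the 23 with a sign that depended on the scaling, and in arterial endothelium it was at 486.7, 513.8 and 464.4 against 359.2, 441.5 and 452.0, apart by 0.24 on the log2 scale (edgeR adjusted p 0.351). Notch2 had 18 of 23 below 0. Its lowest adjusted p was in CD4 T cells, at 84.5, 65.9 and 77.6 against 113.2, 102.3 and 92.2 (log2 fold change -0.45, edgeR adjusted p 0.060). Notch3 in pericytes was at 887, 1196 and 1002 against 1168, 1106 and 1201, and the groups overlapped (log2 fold change -0.17, edgeR adjusted p 0.628). In smooth muscle it was at 547, 729 and 767 against 548, 589 and 645, which overlapped as well (log2 fold change 0.19, edgeR adjusted p 0.859).

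Jag2 was the ligand nearest to a call. In aerocytes it was at 54.1, 63.2 and 67.8 CPM against 52.9, 50.0 and 46.6, apart by 0.35 on the log2 scale with a standard error of 0.090 (edgeR adjusted p 0.0939), where 21.6% of genes tested were apart. The log2 fold change of Jag2 was 0.53 in arterial endothelium (edgeR adjusted p 0.152) and 0.54 in venous endothelium (edgeR adjusted p 0.128). Jag1 in ciliated cells, where it is highest, was at 196.2, 199.6 and 175.7 against 219.1, 234.6 and 234.8, apart by -0.25 on the log2 scale (edgeR adjusted p 0.404), where 13.9% of genes tested were apart. Dll4 was not apart in any of the 7 classes tested. In arterial endothelium, its highest class, it was at 207.2, 236.4 and 164.4 against 179.1, 210.5 and 185.6, with the lowest and the highest of the 6 values both in the p16-DTR-labelled libraries.

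Hey2 was tested in 6 classes with 3 log2 fold changes above and 3 below 0. In arterial endothelium it was at 16.9, 23.2 and 17.5 against 25.9, 24.1 and 25.1 CPM, apart by -0.36 on the log2 scale (edgeR adjusted p 0.307). Hey1 and Hey2 thus had opposite signs in arterial endothelium, and neither was called. Hey2 in smooth muscle was at 48.3, 44.5 and 49.5 against 48.5, 26.2 and 45.1, and the groups overlapped (edgeR adjusted p 0.888).

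**Figure D2:**
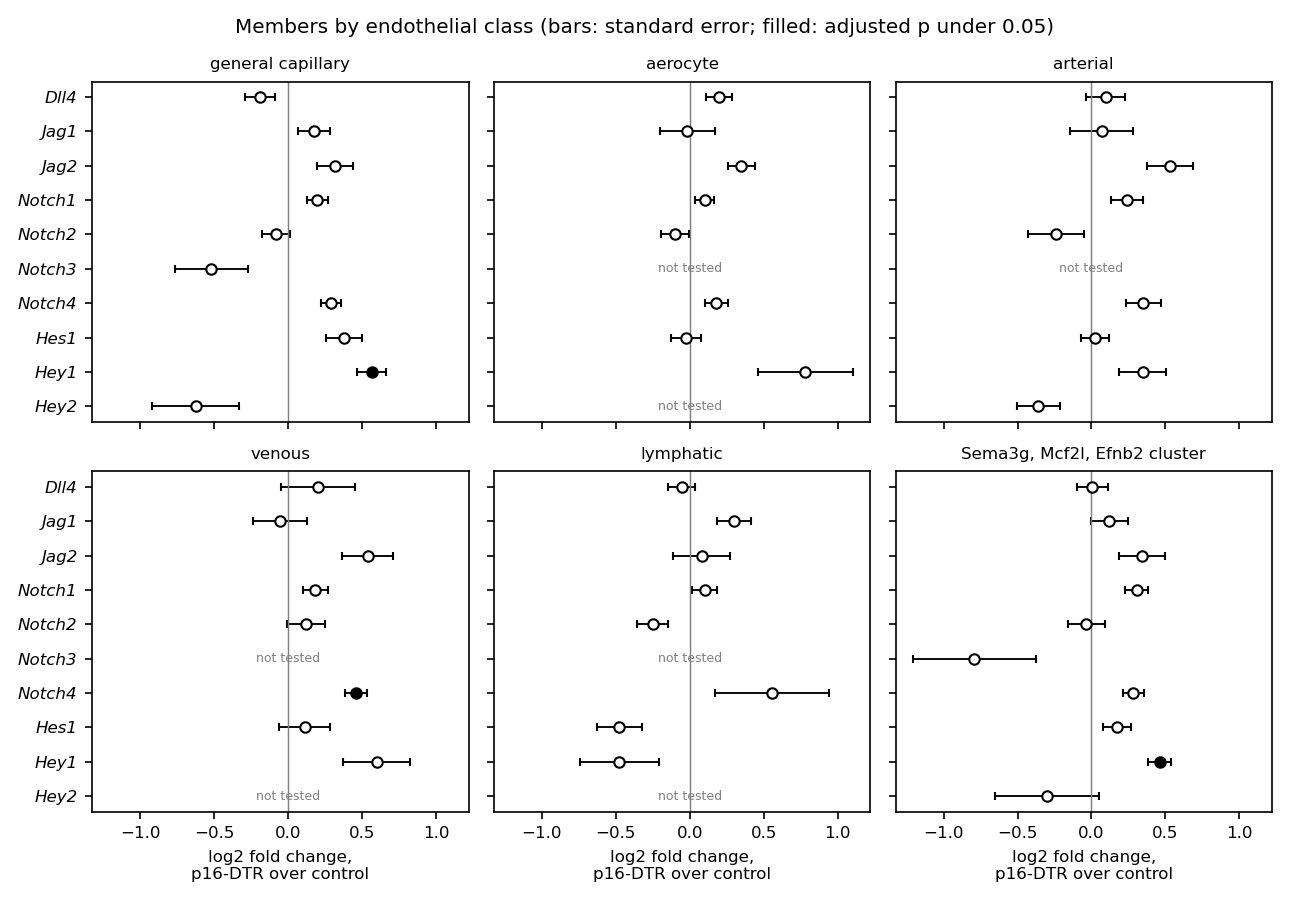
Log2 fold change (x axis, p16-DTR-labelled libraries over control) of the 10 members (y axis) in 5 endothelial classes and the unnamed cluster, with the standard error as a bar and filled points for edgeR adjusted p under 0.05. Hey1 is filled in general capillary endothelium at 0.56 and in the unnamed cluster at 0.46, and Notch4 in venous endothelium at 0.46; Hes1 lies at 0.38 in general capillary and at -0.48 in lymphatic endothelium.

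Hes1 differed in its response between endothelial classes. In general capillary endothelium it was at 276.4, 233.9 and 208.2 CPM against 186.1, 215.1 and 164.0, and in lymphatic endothelium at 378.4, 270.5 and 234.6 against 418.0, 448.2 and 353.0. The groups overlapped within each class, and neither class gave a call (log2 fold change 0.38 with edgeR adjusted p 0.117, and -0.48 with edgeR adjusted p 0.196). The ratio of the lymphatic to the general capillary level within a library was 1.37, 1.16 and 1.13 in the p16-DTR-labelled libraries and 2.25, 2.08 and 2.15 in the controls. These ratios did not overlap. Here and below, ratios were computed only for differences that had been called, from the same counts. Their lack of overlap is therefore a description and not separate evidence. The edgeR test of the difference between the 2 fold changes, with library as a factor, gave -0.87 on the log2 scale with a standard error of 0.11 (edgeR adjusted p 0.00375), where 0.295% of 14922 genes were called. The venous and lymphatic markers that were higher in general capillary cells of the p16-DTR-labelled libraries, 708 to 836 against 502 to 654 and 1008 to 1148 against 650 to 816 CPM, belong to the classes with the highest control levels of Hes1. The summed lymphatic markers in lymphatic endothelium overlapped between the groups. Most of that sum was Ccl21a, at a mean of 20942 against 22409 CPM, and Lyve1 stood at 1120 against 1642. Prox1 at 822 against 859 and Reln at 2351 against 2502 were lower too. The means of Mmrn1 (3169 against 3131), Flt4 (1118 against 1016) and Nts (246 against 201) lay the other way. The part of these markers in the Hes1 result was not tested.

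Between lymphatic and venous endothelium the Hes1 difference was -0.59 with a standard error of 0.11 (edgeR adjusted p 0.0492), where 0.313% of genes were called. The lymphatic to venous ratio was 1.12, 1.03 and 1.16 against 1.498, 1.70 and 1.72, again without overlap. This call was lost in 5 of the 6 fits that left out a library, with adjusted p up to 0.182 without control library 2, and held only without p16-DTR library 1. It was also lost in 5 of 8 other alternatives, at edgeR adjusted p from 0.0502 with doublets kept to 0.0766 with gated cells. After thinning, Hes1 UMIs were found in 59.8%, 55.1% and 52.8% of lymphatic cells of the p16-DTR-labelled libraries and in 69.0%, 65.7% and 66.5% of control cells. In CD8 T cells, the class with the lowest control level of Hes1, the thinned shares were 0.346% and 0.506%, at median depths of 16459 and 17941 UMIs against 12574.5 and 12889.5 in lymphatic cells. Without thinning the lymphatic shares were 67.8%, 62.1% and 62.6% against 76.9%, 72.5% and 79.0%.

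Dll4 differed between the 2 capillary classes. It was at 55.1, 65.5 and 50.0 CPM against 73.3, 60.4 and 65.7 in general capillary endothelium, and at 90.2, 96.4 and 78.8 against 83.6, 71.3 and 83.9 in aerocytes, and both comparisons overlapped. The aerocyte to general capillary ratio was 1.64, 1.47 and 1.58 in the p16-DTR-labelled libraries and 1.14, 1.18 and 1.28 in the controls, without overlap. The difference of the fold changes was 0.41 with a standard error of 0.074 (edgeR adjusted p 0.0380), where 0.347% of genes were called. It was lost in each of the 6 fits that left out a library, with adjusted p from 0.0583 without p16-DTR library 2 to 0.193 without p16-DTR library 1. It was also lost with library size scaling, with doublets kept, with coarser clusters (0.25, edgeR adjusted p 0.345) and with gated cells (0.31, edgeR adjusted p 0.331). In all, 3 of 92 tested differences of members between 2 of the 5 named endothelial classes were called, against 0.363% of all genes over these pairs. Neither the Hey1 nor the Notch4 difference was called between any of these pairs; for Hey1, lymphatic minus general capillary endothelium came nearest at -1.09 with a standard error of 0.27 (edgeR adjusted p 0.141). On simulated counts for aerocytes against general capillary cells, this test recovered 30% of genes that differed by 0.8 and 88% of those that differed by 1.5 on the log2 scale.

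**Figure D3:**
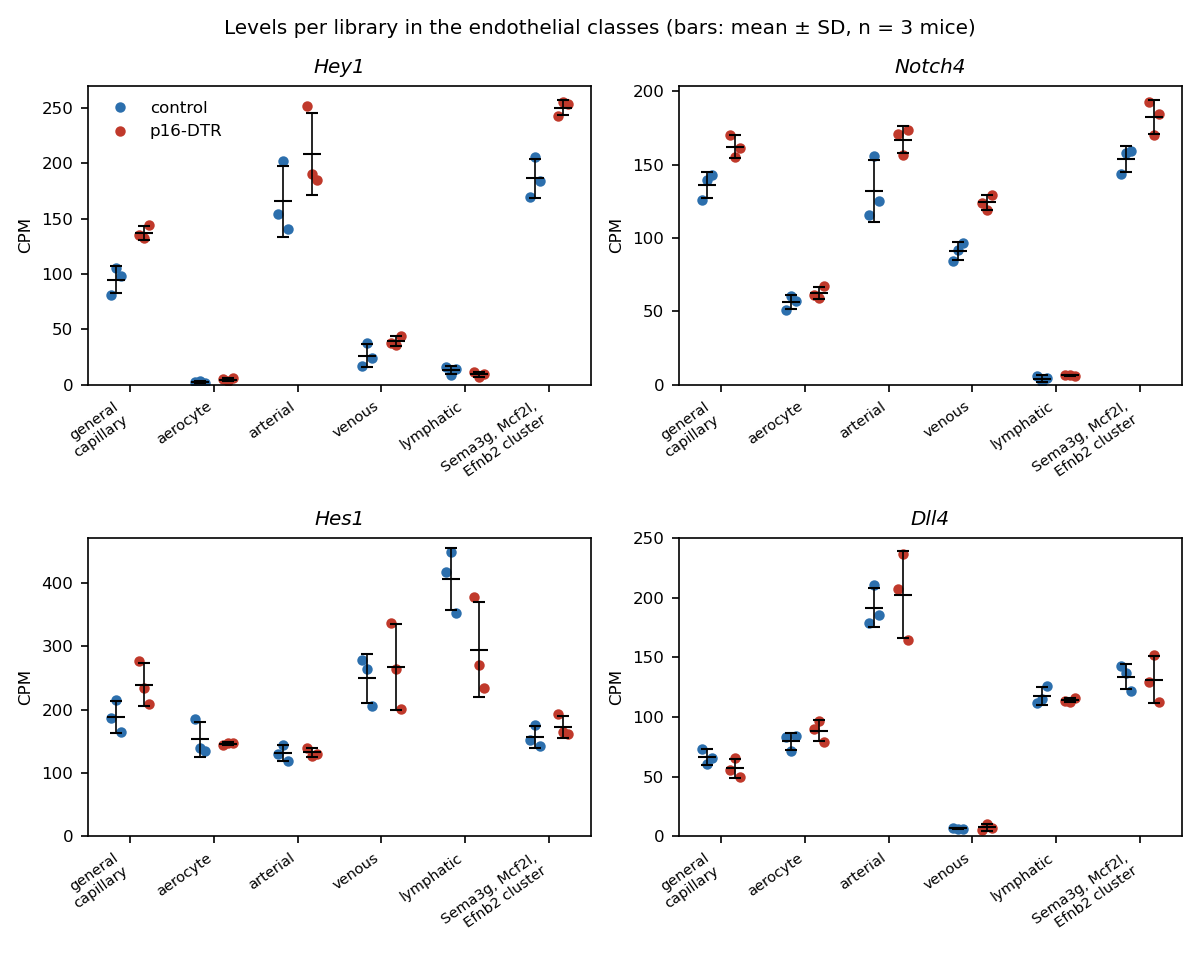
CPM (y axis, from 0) of Hey1, Notch4, Hes1 and Dll4 in each library for 5 endothelial classes and the unnamed cluster (x axis), with control libraries in blue, p16-DTR-labelled libraries in red and bars for the mean ± SD of 3 mice. Hey1 in general capillary endothelium lies at 132.1 to 143.8 in the p16-DTR-labelled libraries and at 81.3 to 105.3 in the controls, while Hes1 in lymphatic endothelium lies at 234.6 to 378.4 against 353.0 to 448.2.

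The share of cells with at least 1 UMI was computed after thinning every cell to 5000 UMIs, with shallower cells left out. It rises with the level per cell as well as with the number of expressing cells, so it cannot tell them apart. Hey1 was found in 43.3%, 43.0% and 45.2% of general capillary cells of the p16-DTR-labelled libraries and in 29.0%, 36.0% and 34.4% of control cells, without overlap. Shares were computed for the members only, so the share of all genes apart on this measure was not available. This class is shown because the Hey1 level was called in it from the same counts. The difference in means was 10.7 percentage points, and 6.52 after thinning to 2000 UMIs. Without thinning the means were 68.0% and 55.7%. In B cells, taken here as a class without Hey1, the share was 0.252% and 0.218%, so the general capillary shares were above this background. B cells had a median of 13350 UMIs in the p16-DTR-labelled libraries and 12051 in the controls, and general capillary cells 15343 and 15115.5.

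Notch4 was found in 44.4%, 42.6% and 44.95% of thinned venous cells of the p16-DTR-labelled libraries and in 32.0%, 34.6% and 37.1% of control cells. The groups did not overlap, in a class chosen because the Notch4 level was called in it, and again without a share of all genes beside it. The difference in means was 9.39 percentage points, and 5.41 after thinning to 2000 UMIs. B cells had Notch4 in 0.422% and 0.410% and neutrophils in 0.703% and 0.403%. Thinning left out 997 and 838 general capillary cells and 82 and 58 venous cells of the p16-DTR-labelled libraries and the controls.

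**Figure D4:**
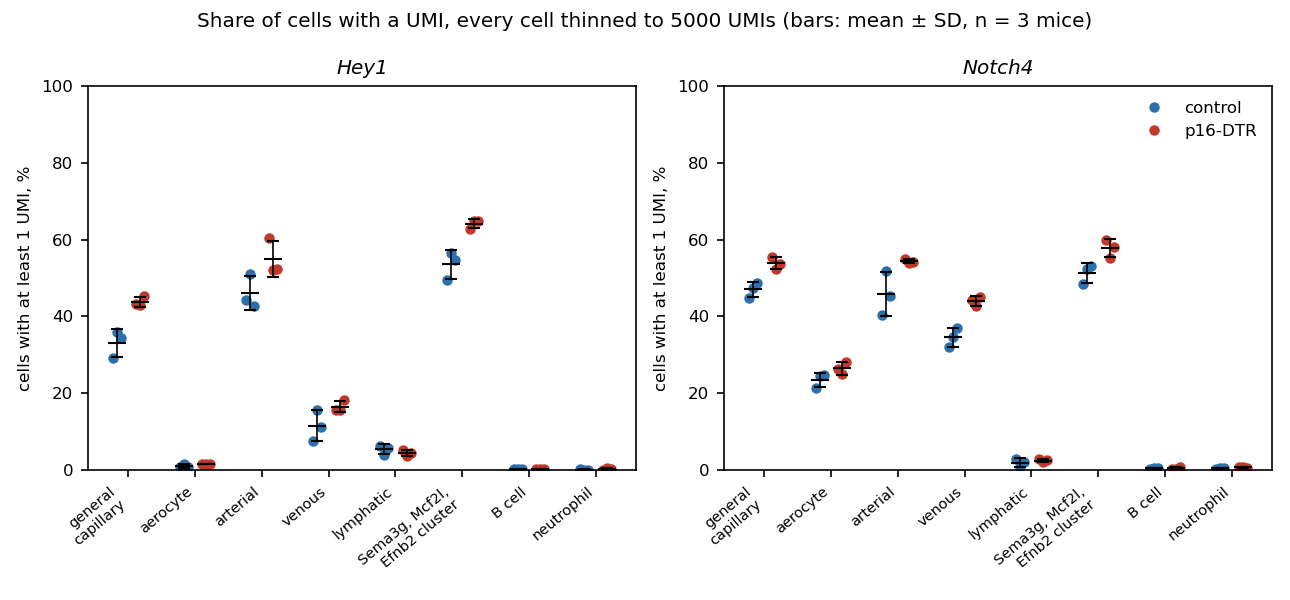
Percentage of cells with at least 1 UMI of Hey1 or Notch4 (y axis) after thinning every cell to 5000 UMIs, in each library of 5 endothelial classes, the unnamed cluster, B cells and neutrophils (x axis), with bars for the mean ± SD of 3 mice. The general capillary shares of Hey1 lie at 43.0% to 45.2% in the p16-DTR-labelled libraries and 29.0% to 36.0% in the controls, and B cells and neutrophils lie near 0 for both genes.

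Summed over all retained cells, no member was called by edgeR, as was no other gene of 21410 (0.0%). At an unadjusted p under 0.05 there were 4 of the 10 members, Notch1, Notch3, Notch4 and Hey1, against 23.1% of all genes, and DESeq2 called Hey1 and Notch3, where it called 11.9% of all genes. Hey1 was at 41.3, 41.3 and 47.5 CPM against 18.7, 37.2 and 26.1, apart like 31.1% of all genes, by 0.72 on the log2 scale (edgeR adjusted p 0.17). Notch3 was at 8.85, 11.3 and 10.4 against 13.1, 17.6 and 17.2, apart by -0.60 on the log2 scale (edgeR adjusted p 0.133). In such sums the number of cells of a type and the RNA per cell cannot be told apart. The 5 endothelial classes and the unnamed cluster led by Sema3g together made up 34.6%, 36.0% and 36.7% of cells in the p16-DTR-labelled libraries and 26.5%, 37.4% and 33.2% in the controls, and general capillary cells alone 17.6% to 19.5% against 12.9% to 16.9%, without overlap. Pericytes and smooth muscle together made up 0.967%, 1.17% and 0.988% against 1.45%, 2.17% and 1.89%. The mural share, like Notch3, was lower in every p16-DTR-labelled library than in every control. The shares of ciliated cells and interstitial macrophages were apart too, so a gap in shares was not particular to mural or general capillary cells. Within pericytes and smooth muscle Notch3 overlapped between the groups, which does not show that its level was the same. The part of the mural share in the Notch3 difference over all cells was not tested.

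The other 68 genes of the pathway, in 9 lists by role, gave 5 calls among 1185 tested pairs of a gene and a named class, or 0.422%, against 0.863% of all pairs. Of these 4 were higher and 1 was lower. Lfng, a Fringe glycosyltransferase that modifies the receptors, was higher in general capillary endothelium, at 35.3, 36.7 and 33.6 CPM against 28.6, 24.2 and 23.9 (log2 fold change 0.50, edgeR adjusted p 0.0261). Dtx3l, a ubiquitin ligase of the Deltex family, was higher in aerocytes, at 67.1, 66.9 and 66.6 against 54.7, 52.2 and 44.9 (0.44, edgeR adjusted p 0.0303), where 1.04% of genes were called. In venous endothelium Tle1, a Groucho corepressor, was at 209.8, 192.3 and 197.0 against 144.5, 160.5 and 133.1 (0.46, edgeR adjusted p 0.0182).

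Mfap2, a microfibril protein, was also higher in venous endothelium, at 153.5, 114.7 and 141.0 against 98.5, 93.9 and 97.9 (0.51, edgeR adjusted p 0.0234). Furin, the protease that makes the first cut in the receptors, was lower in CD4 T cells, at 195.1, 100.4 and 109.5 against 410.2, 418.3 and 356.1 (-1.58, edgeR adjusted p 0.00562), where 3.77% of genes were called. In none of the 5 did the groups overlap, as for 28.1% of genes tested in general capillary endothelium, 21.6% in aerocytes, 24.5% in venous endothelium and 21.1% in CD4 T cells. The Furin call held in each of the 6 fits that left out a library and was lost with gated cells (-1.13 on the log2 scale, edgeR adjusted p 0.0582). Dtx3l held only without control library 2 (edgeR adjusted p 0.0365) and Mfap2 only without p16-DTR library 2 (0.00922). Lfng held without p16-DTR library 2 or control library 1 (0.0412 and 0.0212) and Tle1 without p16-DTR library 2, control library 2 or control library 3 (0.0381, 0.0127 and 0.0459). With gated cells the calls of Lfng, Mfap2 and Tle1 were lost too (edgeR adjusted p 0.0506, 0.0745 and 0.0688). The Tle1 call was lost in 2 of 10 alternatives, gated cells among them. The lists of other ligands (6 genes, 21 tested pairs), ligand endocytosis (4 genes, 66 pairs), the nuclear complex with Rbpj and the Mastermind genes (9 genes, 185 pairs) and other targets (8 genes, 60 pairs) had 0 calls by edgeR. At an unadjusted p under 0.05 they had 5, 10, 30 and 10 pairs, or 23.8%, 15.2%, 16.2% and 16.7%. The lists with a call had 9.9% for glycosylation, 11.2% for cleavage, 17.1% for turnover, 11.7% for corepressors and 15.6% for secreted modulators. Over all 68 other pathway genes the share was 13.9%, against 13.2% of all pairs. DESeq2 called 1, 2, 5 and 1 of the pairs in the lists with 0 edgeR calls, where it called 2.28% of all pairs.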

How the data were processed

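The deposited values are raw counts of UMIs for each gene in each barcode, made by the authors with Cell Ranger 8.0.1 on mm10, per the submitters' processing notes. Cells with at least 500 UMIs, 300 genes and at most 15% mitochondrial UMIs were kept, and predicted doublets (0.4% per 1000 barcodes, an assumed rate) were left out. Cells were clustered with leidenalg 0.10.2 at resolution 1.5 on 2000 variable genes, leaving out all pathway genes, and clusters were named from marker lists. Counts were summed by library and class where each library had at least 50 cells. They were tested with edgeR 4.0.16 (R 4.3.3; filterByExpr, TMM, quasi-likelihood test) with 3 mice per group and Benjamini-Hochberg adjustment in each class. Differences between endothelial classes were tested with library as a factor. Other pathway genes were named where they were called and had the largest absolute log2 fold change of their list in that class, and other genes for their similarity to a member, as markers or as a check of the labels. On simulated counts for general capillary cells, the class test recovered 82% of genes changed by 0.8 and 100% of those changed by 1.5 on the log2 scale. The members and lists were chosen with earlier results of these data known. The alternatives are other scaling, no count filter, DESeq2 1.42.0, a replicate block, libraries left out in turn, and other cell filters and classes. One gene similar in distribution to a member is not reported here.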

Additional observations from a re-analysis of the deposited data

Results flagged for a closer look

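The fold changes of 2 members differed between endothelial classes by the test of the difference itself. Hes1 differed by -0.87 on the log2 scale between lymphatic and general capillary endothelium (edgeR adjusted p 0.00375), with a lower within-library ratio in 3 of 3 p16-DTR-labelled libraries than in any control. Hes1 also differed by -0.59 between lymphatic and venous endothelium (edgeR adjusted p 0.0492), a call lost in 5 of 6 fits that left out a library and in 5 of 8 other alternatives. Dll4 differed by 0.41 between aerocytes and general capillary endothelium (edgeR adjusted p 0.0380), with a higher within-library ratio in 3 of 3 p16-DTR-labelled libraries than in any control. The Dll4 call was lost in 6 of 6 fits that left out a library and in 4 of 8 other alternatives. On simulated counts for the last of these pairs, 11.3% of the calls of this test were false. The within-library ratios were computed only for called differences, from the same counts, and are not separate evidence.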

How the results depend on the processing

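No counted call, called gene or called class difference reversed its direction under the alternatives run, while the uncalled values of Notch1 in alveolar type 1 cells and Jag1 in alveolar type 2 cells changed sign with library size scaling. The 2 calls of members by class became 15 with no filter on low counts, 7 with DESeq2 and 1 with cells gated one by one, and 0 to 5 when a library was left out (0 without p16-DTR library 3, 5 without p16-DTR library 1). Over all cells, DESeq2 called 2 members in place of 0, and leaving out a library gave 0 to 0. The 5 calls of other pathway genes became 44 with no filter, 27 with DESeq2, 10 with the replicate block and 3 with gated cells, and 2 to 6 when a library was left out (2 without p16-DTR library 3 or control library 1, 3 without p16-DTR library 1 or control library 3). The 3 class differences became 12 with no filter, 1 with library size scaling, 1 with doublets kept and 1 with gated cells, and 1 to 2 when a library was left out (2 only without p16-DTR library 1). The difference in the share of general capillary cells with a Hey1 UMI was 10.7 percentage points, 6.52 after thinning to 2000 UMIs, and 8.62 to 12.1 when a library was left out. The rule for pairing by replicate number was not met: same-numbered libraries correlated at -0.09, -0.42 and 0.02 in general capillary endothelium and at 0.44, -0.09 and 0.37 over all cells, where numbers 1 and 3 correlated best with their own number. With the replicate block 3 pairs of a member and a class were called, and Hey1 in general capillary endothelium had an edgeR adjusted p of 0.0577. The alternatives without low-UMI clusters, with single clusters and with unnamed clusters were chosen after seeing the data. The causes of these changes were not tested. Low counts limited the test to 138 of 230 pairs.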
